A study of Homo sapiens with 7 samples.

Results

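Genomic imprinting is the expression of a gene mainly from the copy inherited from 1 parent. The set described here holds 10 genes known as imprinted, for the human kidney cancer cell line 769-P. On chromosome 15 they are NDN and SNRPN of the Prader-Willi region, and on chromosome 7 PEG10, SGCE, GRB10 and MEST. The others are CDKN1C, H19 and IGF2 on chromosome 11, and PEG3. The values are per gene and do not separate the parental copies, so imprinting itself was not measured in these cells. Members were chosen by symbol, with results of these data known: the set was selected on NDN, which was higher in Lat-M1 cells, and on PEG10, which was lower in both kinds of Lat-M cells. Those values of NDN and PEG10 are therefore given as a description with no test. The other 8 genes were not named in that choice, although earlier results of the data were known. The files listed 9 of the 10 members among 33117 gene identifiers, each member under 1 identifier, and PEG3 was not analysed here. Of the 9, 6 had a mean of at least 1 TPM (transcripts scaled for length and library total) over all libraries and were tested, while MEST, H19 and IGF2 were not. NDN passed that minimum only through its Lat-M1 libraries and CDKN1C only through its Lat-M2 libraries (mean of the 5 others 0.136 and 0.902 TPM).

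The study compared RNA from 769-P cells labelled Lat-M with RNA from 769-P cells labelled PA by RNA sequencing. There were 2 libraries of Lat-M1, 2 of Lat-M2 and 3 of PA, all from cells grown in RPMI medium with serum and with no treatment named. 769-P is an established line from a human renal carcinoma; what PA and Lat-M stand for, and whether M1 and M2 are separate derivatives, is not given in the sources used here. Nor do the sources say whether libraries of a group came from separate cultures, so p-values measure only the spread between these libraries.

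All libraries expressed PAX8, a kidney lineage factor, at 65.6 to 87.9 TPM, and KRT8, a keratin of simple epithelia, at 88.8 to 206 TPM. PAX2, of the same list of 8 kidney and renal carcinoma markers, was at 0.633 to 1.63 TPM. Of the 8, 5 averaged at least 1 TPM in Lat-M1 and in PA, and 6 in Lat-M2. CA9 and NDUFA4L2, genes typically high in clear cell renal carcinoma, were at or under 0.156 TPM in every library. Over all 16724 tested identifiers the log2 fold changes against PA had a median of 0.16 in Lat-M1 and of 0.14 in Lat-M2, so a member's change against PA is read beside that shift. The share of each library taken by 4 structural RNAs (RN7SL1, RN7SL2, RN7SK and RMRP) was 20.2% ± 2.30 in Lat-M1, 25.3% ± 3.42 in Lat-M2 and 30.5% ± 1.17 in PA (SD, n = 2, 2 and 3); its part in the shift was not tested.

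Imprints are laid down in the germ line as DNA methylation of control regions and are kept through cell division, and a single control region often governs several neighbouring genes. In the Prader-Willi region the paternal copy carries the active genes, NDN and SNRPN among them. Necdin, the product of NDN, is a MAGE family protein that binds E2F1 and is best known from postmitotic neurons, whereas SNRPN encodes a spliceosomal Sm protein and is transcribed with SNURF from a shared start.

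The start regions of NDN and of SNRPN are shown because both genes were higher in Lat-M1 than in PA, by very different amounts. The RefSeq table of start regions (GRCh38.p14, 250 bases before to 50 after each start, 300 bases in all) held GRB10, MEST, H19, NDN and SNRPN, 5 of the 10 members. NDN lies on the minus strand at chr15:23687256-23687555, and SNRPN and SNURF share the plus-strand window chr15:24954737-24955036. A further SNRPN start lies downstream at chr15:24956050-24956349, also on the plus strand. The table holds 2 more SNRPN windows upstream, not printed, with 7 and 2 CpG dinucleotides. Sequences run 5′ to 3′, and capitals mark a match to GCGCANGCGC, a pattern of the type bound by NRF1. The pattern was searched on both strands and chosen after the sequences were seen.
NDN start: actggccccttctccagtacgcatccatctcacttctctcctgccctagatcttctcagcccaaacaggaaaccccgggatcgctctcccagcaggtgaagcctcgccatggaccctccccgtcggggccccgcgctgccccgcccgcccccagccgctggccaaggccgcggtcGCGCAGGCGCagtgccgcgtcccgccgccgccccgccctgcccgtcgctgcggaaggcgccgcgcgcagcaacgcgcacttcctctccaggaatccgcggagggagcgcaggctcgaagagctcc
SNRPN and SNURF shared start: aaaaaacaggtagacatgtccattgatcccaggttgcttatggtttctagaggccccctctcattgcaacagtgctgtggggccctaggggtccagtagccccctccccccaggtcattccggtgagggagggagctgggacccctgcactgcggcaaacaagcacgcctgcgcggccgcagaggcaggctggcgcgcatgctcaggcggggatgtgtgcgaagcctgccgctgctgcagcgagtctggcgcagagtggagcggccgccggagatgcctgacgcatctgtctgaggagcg
SNRPN downstream start: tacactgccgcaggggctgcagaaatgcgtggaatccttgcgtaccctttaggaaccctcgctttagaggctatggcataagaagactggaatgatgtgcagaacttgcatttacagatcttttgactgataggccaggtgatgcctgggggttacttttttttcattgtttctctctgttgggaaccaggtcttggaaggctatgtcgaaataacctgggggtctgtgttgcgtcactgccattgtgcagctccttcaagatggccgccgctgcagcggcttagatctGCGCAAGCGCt
The NDN window held 35 CpG dinucleotides, against a median of 14 over the 35116 windows of the table, and 14.1% of all windows held at least as many. The shared SNRPN and SNURF window held 18 and the downstream SNRPN window held 11. The pattern GCGCANGCGC occurred in 5.78% of all windows; the NDN and downstream SNRPN windows had 1 match each, as did an upstream SNRPN window and the SNHG14 window, and the letters were not in the shared window. Of 84 windows of imprinted genes on the lists, 7 held it.

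NDN (ENSG00000182636.4) was present in Lat-M1 libraries and close to absent from the others. Its level was 48.5 and 49.0 TPM in the Lat-M1 libraries, 0.104 and 0.0539 TPM in the Lat-M2 libraries, and 0.0545, 0.231 and 0.236 TPM in the PA libraries. Both Lat-M1 libraries stood far above all 5 others, and the Lat-M2 values lay within or near the PA range. On the log2(TPM + 1) scale NDN in Lat-M1 was 5.41 above PA, and in Lat-M2 it was 0.12 below (−0.12). With 0.1 added in place of 1, the Lat-M1 difference was 7.57, since PA levels lie far under 1 TPM. These are bulk libraries, in which fewer cells that express a gene and less RNA per cell cannot be told apart. By group mean NDN ranked 3292 of the 33117 identifiers in Lat-M1, 24479 in Lat-M2 and 21805 in PA.

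SNRPN (ENSG00000128739.16) was expressed in every library and averaged 207% of the PA mean in Lat-M1 and 89.3% in Lat-M2. It had 58.6 and 60.9 TPM in the Lat-M1 libraries, 27.1 and 24.4 TPM in the Lat-M2 libraries, and 28.7, 29.6 and 28.2 TPM in the PA libraries. The Lat-M1 values lay above all others, and the Lat-M2 values lay just below the PA range. SNRPN rose in Lat-M1 against PA by 1.03 ± 0.063 (log2 fold change ± SE, limma adjusted p = 2.32e-05). In Lat-M2 against PA the difference was −0.16 ± 0.063 and did not pass the test (limma adjusted p = 0.13), but after median-ratio scaling of the libraries it was −0.31 and passed (limma adjusted p = 0.00843). The difference of Lat-M2 from Lat-M1 was −1.19 ± 0.069 (limma adjusted p = 2.53e-05).

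The tested imprinted genes beside SNRPN (SNURF, SNHG14, UBE3A and ATP10A) also rose in Lat-M1. Over all tested protein-coding genes of chromosome 15, 86.5% rose in Lat-M1 against PA, with a median of 0.63. ATP10A rose by less than that median, and SNURF, SNHG14 and UBE3A by more. SNURF, whose reading frame lies upstream of SNRPN on the same transcript, had 118 and 122 TPM in Lat-M1, 54.1 and 48.4 TPM in Lat-M2, and 57.3, 59.3 and 56.1 TPM in PA, and rose in Lat-M1 against PA by 1.05 ± 0.064 (limma adjusted p = 2.19e-05). SNURF over SNRPN was 1.98 to 2.02 in every library; the genes overlap, so how their reads were split is uncertain and they are not separate evidence. SNHG14, the long host transcript of the region's small nucleolar RNAs, rose by 0.77 ± 0.085 in Lat-M1 against PA (limma adjusted p = 0.000357). The summed level of 28 small nucleolar RNAs of the region (SNORD115 copies left out), 13 of them at 0 in some library, was 361 and 389 TPM in Lat-M1, 176 and 207 TPM in Lat-M2, and 179, 206 and 227 TPM in PA. UBE3A, a ubiquitin ligase expressed from the maternal copy in neurons, rose by 0.84 ± 0.090 (limma adjusted p = 0.000309) and ATP10A, a lipid flippase, by 0.58 ± 0.081 (limma adjusted p = 0.00115). SNHG14 runs antisense to UBE3A, and use of strand in counting is not given in the sources used here, so the split of their reads is uncertain. None of SNURF, SNHG14, UBE3A and ATP10A passed in Lat-M2 against PA (limma adjusted p 0.069 to 0.898), though their unscaled values ran from −0.17 to 0.29 and SNURF passed after scaling (−0.32, limma adjusted p = 0.00865). MKRN3, which lies on the other side of NDN and is also paternally expressed, averaged 0.0602 TPM in Lat-M1 and was listed at 0 in every Lat-M2 and PA library, and MAGEL2 and NPAP1 were not analysed here.

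Chromosome 15 as a whole was also higher in Lat-M1. Of its 370 tested protein-coding genes, 320 rose and 14 fell in Lat-M1 against PA, a median of 0.63 (0.46 after scaling), the highest of 23 chromosomes, while over all 11483 protein-coding genes 41.6% rose with a median of 0.18. In Lat-M2 the chromosome 15 median was 0.22. Of 13 tested protein-coding genes around NDN and SNRPN (2 before NDN, SNURF, and 10 after it, in the order of the annotation), 12 rose in Lat-M1 and 1 fell (GABRG3, a GABA receptor subunit), with a median of 0.70. SNRPN at 1.03 thus lay 0.40 above its chromosome's median and NDN 4.78 above it; the part of the chromosome-wide difference in the SNRPN and NDN values was not tested.

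**Figure D1:**
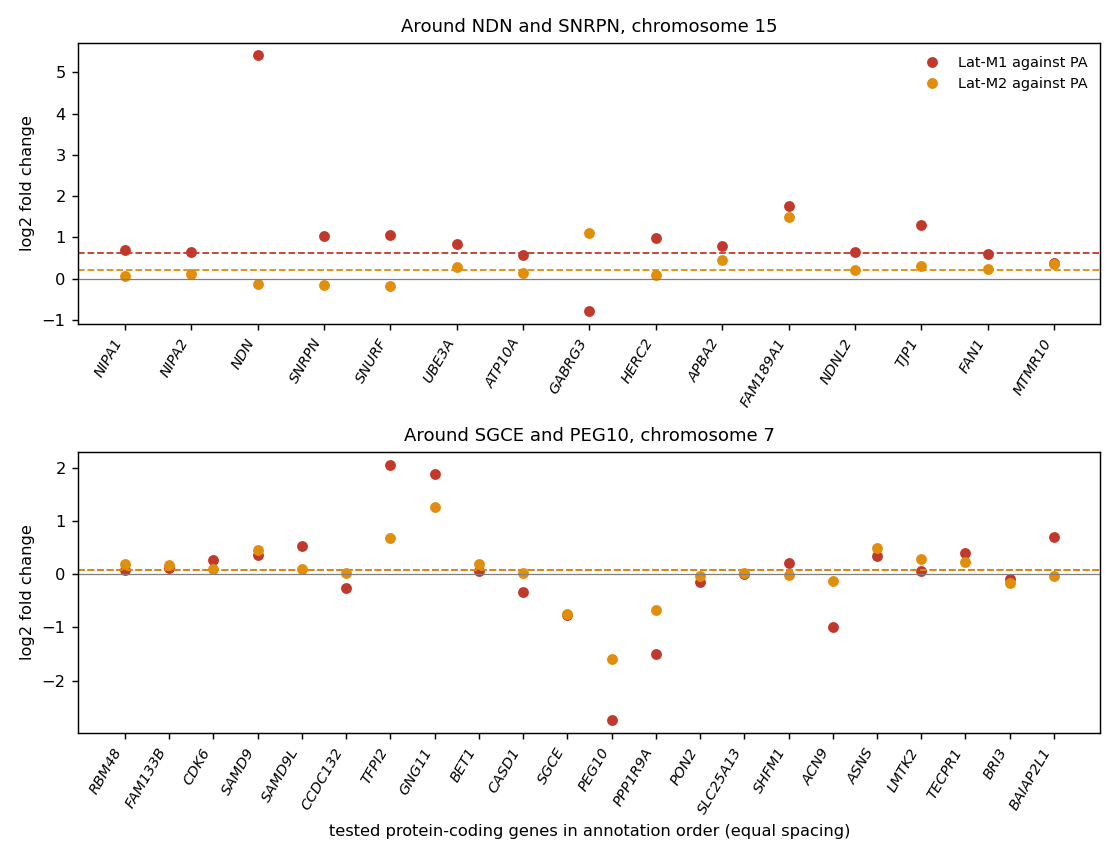
Log2 fold change against PA (vertical axis) of tested protein-coding genes in annotation order around NDN and SNRPN on chromosome 15 (upper panel) and around SGCE and PEG10 on chromosome 7 (lower panel), with Lat-M1 in red and Lat-M2 in orange. Dashed lines are the medians of the chromosome's protein-coding genes, 0.63 and 0.22 on chromosome 15 and 0.08 for both on chromosome 7. NDN in Lat-M1 stands at 5.41. In the lower panel SGCE, PEG10 and PPP1R9A lie below 0 in both, as do ACN9, PON2 and BRI3.

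Marker genes of other cells were compared for the NDN pattern. The summed level of 7 fibroblast and pericyte markers was 21.9 to 23.8 TPM in Lat-M1, 6.91 to 8.87 TPM in Lat-M2 and 5.18 to 5.54 TPM in PA, with 2 of the 7, COL1A1 and RGS5, averaging at least 1 TPM in each group. COL1A1 had 19.2 and 20.6 TPM in Lat-M1, 3.72 and 2.91 TPM in Lat-M2, and 1.04, 1.37 and 1.16 TPM in PA, whereas RGS5 averaged 2.02, 4.29 and 3.71 TPM in Lat-M1, Lat-M2 and PA. PDGFRB, a receptor of pericytes, had 0.712 and 0.974 TPM in Lat-M1, 0.359 and 0.185 TPM in Lat-M2, and 0.341 to 0.461 TPM in PA, and the other 4 (PDGFRA, DCN, LUM and COL1A2) were at or under 0.0364 TPM in every library. The 5 listed neuronal markers summed to 366 to 379 TPM in Lat-M1, 359 to 421 TPM in Lat-M2 and 287 to 329 TPM in PA. Of these, RBFOX3 and SNAP25 were at or under 0.0293 TPM in every library, while NEFL, a neurofilament, had 278 and 285 TPM in Lat-M1, 289 and 241 TPM in Lat-M2, and 183, 198 and 194 TPM in PA. TUBB3, a tubulin of neurons, had 88.2 and 93.4 TPM in Lat-M1, 132 and 118 TPM in Lat-M2, and 103, 130.5 and 122 TPM in PA, and SYP was at or under 0.313 TPM. The part of these cell markers in the NDN difference was not tested.

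PEG10 (ENSG00000242265.1) was the most abundant member in PA and was lower in both kinds of Lat-M cells. PEG10 derives from the gag and pol genes of a retrotransposon, is paternally expressed and is needed for placental development in mice. Its level was 72.9 and 78.0 TPM in the Lat-M1 libraries, 182 and 157 TPM in the Lat-M2 libraries, and 520.2, 491 and 523 TPM in the PA libraries. The 3 groups did not overlap, with Lat-M1 lowest and Lat-M2 between. Lat-M1 held 14.8% of the PA mean and Lat-M2 33.1%, which were −2.74 and −1.59 on the log2 scale. By group mean PEG10 ranked 2077 of 33117 identifiers in Lat-M1, 713 in Lat-M2 and 151 in PA. The difference between the 2 kinds of Lat-M cells rests on values that chose the set, so it is given with no test. PEG10 was higher in Lat-M2 than in Lat-M1 by 1.15 on the log2 scale.

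SGCE (ENSG00000127990.11), which encodes epsilon-sarcoglycan of the dystrophin-associated complex and starts next to PEG10 in the opposite direction, fell in both kinds of Lat-M cells. It had 38.3 and 39.5 TPM in the Lat-M1 libraries, 38.7 and 39.8 TPM in the Lat-M2 libraries, and 67.5, 65.6 and 66.9 TPM in the PA libraries. All 4 Lat-M libraries lay below all 3 PA libraries. The log2 fold change was −0.76 ± 0.050 in Lat-M1 (limma adjusted p = 3.23e-05) and −0.75 ± 0.050 in Lat-M2 (limma adjusted p = 0.000311); both comparisons share the PA libraries. Between Lat-M2 and Lat-M1 the difference was 0.01 ± 0.055 (limma adjusted p = 0.88). Since SGCE and PEG10 adjoin and strand use is not given in the sources used here, reads near their starts may be shared.

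The genes of the PEG10 and SGCE domain did not keep their proportions. PEG10 over SGCE was 1.90 and 1.97 in the Lat-M1 libraries, 4.69 and 3.94 in the Lat-M2 libraries, and 7.71, 7.48 and 7.82 in the PA libraries. PPP1R9A, which encodes the actin-binding protein neurabin and lies beyond PEG10, had 18.4 and 18.1 TPM in Lat-M1, 35.1 and 31.5 TPM in Lat-M2, and 52.4, 51.1 and 56.6 TPM in PA. The levels of PPP1R9A were in the same order as those of PEG10, and it fell by 1.50 on the log2 scale in Lat-M1 (−1.50 ± 0.071, limma adjusted p = 6.6e-06) and by 0.66 in Lat-M2 (−0.66 ± 0.071, limma adjusted p = 0.00231). TFPI2, a protease inhibitor of the same domain, went the other way in Lat-M1, with 4.88 and 4.30 TPM there, 1.59 and 0.764 TPM in Lat-M2, and 0.309, 0.359 and 0.334 TPM in PA. TFPI2 reached the minimum for testing only through its Lat-M1 libraries (mean of the 5 others 0.671 TPM), the group where it is high. TFPI2 rose by 2.07 ± 0.202 in Lat-M1 against PA (limma adjusted p = 0.000211), while in Lat-M2 its difference of 0.68 ± 0.202 did not pass (limma adjusted p = 0.0635). CASD1, a sialic acid acetyltransferase gene next to SGCE, was −0.33 in Lat-M1 (limma adjusted p = 0.00842) and 0.02 in Lat-M2 (limma adjusted p = 0.863), and PON1 beyond PPP1R9A and COL1A2 beyond CASD1 averaged at or under 0.0540 TPM in every group. Over 20 neighbouring protein-coding genes other than the members, 9 rose and 4 fell in Lat-M1 and 4 rose and 1 fell in Lat-M2. Over the 540 tested protein-coding genes of chromosome 7, 26.7% rose and 18.7% fell in Lat-M1, and 7.59% rose and 4.44% fell in Lat-M2. The median of the 20 was 0.11 in Lat-M1 and 0.10 in Lat-M2; over chromosome 7 it was 0.08 in both.

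**Figure D2:**
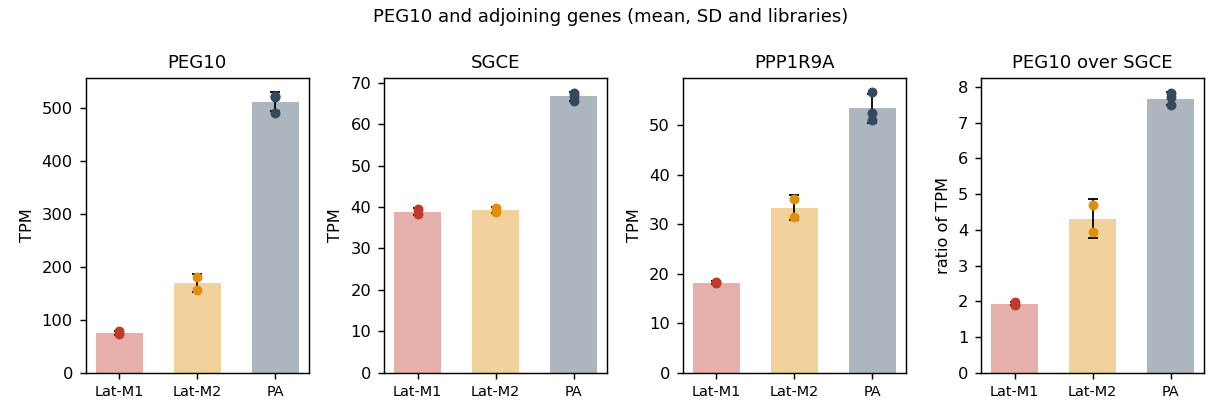
TPM of PEG10, SGCE and PPP1R9A and the ratio of PEG10 to SGCE (vertical axes) in Lat-M1, Lat-M2 and PA; bars are group means, error bars are SD between libraries and points are libraries (n = 2, 2 and 3). SGCE is at 38.9, 39.3 and 66.7 TPM, level between Lat-M1 and Lat-M2, whereas PEG10 averages 75.5, 169 and 511 TPM and PPP1R9A 18.2, 33.3 and 53.4 TPM.

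GRB10 (ENSG00000106070.13), an adaptor that binds the insulin and insulin-like growth factor receptors and dampens their signal, was modestly higher in both kinds of Lat-M cells. It had 23.9 and 24.8 TPM in the Lat-M1 libraries, 24.8 and 21.8 TPM in the Lat-M2 libraries, and 16.9, 16.1 and 17.9 TPM in the PA libraries. No Lat-M library overlapped a PA library. GRB10 rose by 0.50 ± 0.077 in Lat-M1 (limma adjusted p = 0.00174) and by 0.43 ± 0.077 in Lat-M2 (limma adjusted p = 0.0151), and after scaling by 0.33 and 0.29. The Lat-M2 call was lost without the first Lat-M2 library (limma adjusted p = 0.0808). DDC, the aromatic amino acid decarboxylase gene beside GRB10, did not follow it, with 0.966 and 1.26 TPM in Lat-M1, 8.81 and 8.05 TPM in Lat-M2, and 7.51, 7.76 and 7.13 TPM in PA. DDC fell in Lat-M1 (−2.01 ± 0.10, limma adjusted p = 8.53e-06) and differed from PA by 0.16 in Lat-M2 (limma adjusted p = 0.321). Of the outer neighbours, FIGNL1 was 0.20 in Lat-M1 (limma adjusted p = 0.0407) and −0.19 in Lat-M2 (limma adjusted p = 0.0932), and COBL was −0.23 in Lat-M1 (limma adjusted p = 0.202) and 0.65 in Lat-M2 (limma adjusted p = 0.0221).

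CDKN1C (ENSG00000129757.8), the maternally expressed gene of the cell cycle inhibitor p57, was low in all libraries, lowest in Lat-M1 and highest in Lat-M2. It had 0.364 and 0.341 TPM in the Lat-M1 libraries, 2.47 and 2.87 TPM in the Lat-M2 libraries, and 1.39, 1.35 and 1.07 TPM in the PA libraries. The 3 groups did not overlap. It entered the test only through its level in Lat-M2, so the tests of that higher level are not independent of the minimum; with no minimum the limma adjusted p was 0.0382 in Lat-M2 against PA. CDKN1C fell in Lat-M1 against PA (−0.74 ± 0.163, limma adjusted p = 0.0087) and was higher in Lat-M2 than in Lat-M1 by 1.44 ± 0.179 (limma adjusted p = 0.000899). In Lat-M2 against PA it was higher by 0.70 ± 0.163 (limma adjusted p = 0.0338), a call lost after scaling (limma adjusted p = 0.0505), with 0.1 added in place of 1 (limma adjusted p = 0.0709) and without any 1 of the 7 libraries (limma adjusted p 0.0543 to 0.114). Its domain neighbour SLC22A18AS, an antisense transcript, had 0.370 and 0.440 TPM in Lat-M1, 3.70 and 4.11 TPM in Lat-M2, and 2.83, 4.15 and 3.69 TPM in PA. SLC22A18AS fell in Lat-M1 (−1.69 ± 0.158, limma adjusted p = 0.000171) and was 0.12 in Lat-M2 (limma adjusted p = 0.643), but its reads cannot be told apart from those of SLC22A18 where strand use is not given. SLC22A18, a membrane transporter gene, was −0.52 in Lat-M1 (limma adjusted p = 0.0501) and 0.16 in Lat-M2 (limma adjusted p = 0.564). KCNQ1OT1, the paternal long RNA of the domain, was 0.37 in Lat-M1 (limma adjusted p = 0.0879) and 0.07 in Lat-M2 (limma adjusted p = 0.772). PHLDA2 was 0.39 in Lat-M1 (limma adjusted p = 0.172) and 0.45 in Lat-M2 (limma adjusted p = 0.192), and KCNQ1 averaged 0.193 TPM in Lat-M1, 0.0752 TPM in Lat-M2 and 0.0591 TPM in PA.

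The fetal growth genes IGF2, H19 and MEST were close to absent in every group. IGF2, the paternally expressed growth ligand, was listed at 0.0135 TPM in 1 Lat-M1 library and at 0 in the other 6 libraries. H19, the maternally expressed noncoding RNA that shares a control region with IGF2, had 0.0335 and 0.104 TPM in the Lat-M1 libraries, was listed at 0 in both Lat-M2 libraries, and had 0, 0.0309 and 0 TPM in the PA libraries. MEST, which encodes a protein of the hydrolase fold, was listed at 0 in both Lat-M1 libraries, had 0.0213 and 0 TPM in the Lat-M2 libraries, and had 0.0222, 0.0188 and 0 TPM in the PA libraries. TPM keeps no read depth, so these values have no counting interval, and none of the 3 genes was tested. Beside MEST, COPG2 averaged 19.3, 23.0 and 20.7 TPM in Lat-M1, Lat-M2 and PA. In that order CEP41 averaged 3.65, 5.96 and 5.10 TPM, and CPA4, not tested, 0.387, 1.46 and 0.917 TPM. CEP41 was −0.40 in Lat-M1 against PA (limma adjusted p = 0.014) and 0.19 in Lat-M2 (limma adjusted p = 0.221). COPG2 did not pass in Lat-M1 or Lat-M2 against PA (limma adjusted p = 0.415 and 0.32). Beside IGF2 and H19, MRPL23, a mitochondrial ribosomal protein gene, averaged 35.0, 26.1 and 23.7 TPM in Lat-M1, Lat-M2 and PA. MRPL23 was 0.55 in Lat-M1 against PA (limma adjusted p = 0.00426) and 0.14 in Lat-M2 (limma adjusted p = 0.377). TNNT3 was at or under 0.0196 TPM in each group. USP29, beside PEG3, averaged 0.0121 TPM in Lat-M1, 0.0379 TPM in Lat-M2 and 0 TPM in PA.

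**Figure D3:**
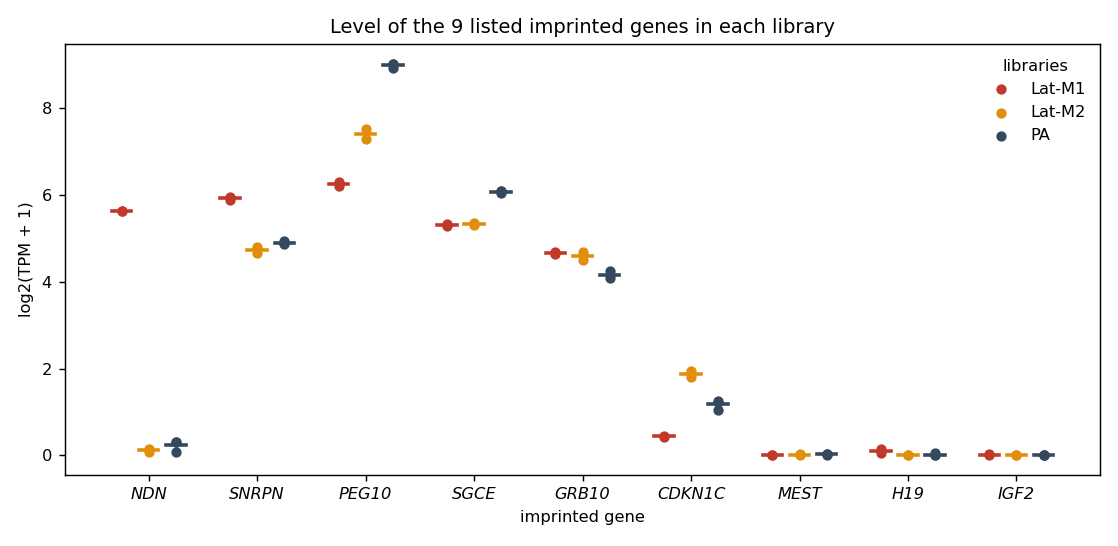
Level of the 9 listed members as log2(TPM + 1) (vertical axis) in each library of Lat-M1, Lat-M2 and PA; points are libraries and short lines are group means on that scale. NDN is high only in Lat-M1, PEG10 and SGCE are highest in PA, CDKN1C is lowest in Lat-M1, and MEST, H19 and IGF2 lie at or near 0.

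Counted over the 4 tested genes that were not named in the choice, SNRPN and GRB10 rose and SGCE and CDKN1C fell in Lat-M1 against PA (limma, adjusted p under 0.05), where 33.2% of all tested identifiers rose and 11.6% fell. In Lat-M2 against PA, GRB10 and CDKN1C rose and SGCE fell, against 12.7% and 2.24% of all identifiers; after scaling 1 rose (GRB10) and 2 fell (SGCE and SNRPN). Because the set was selected on these contrasts with PA, nothing is read from those counts. In Lat-M2 against Lat-M1, CDKN1C was higher and SNRPN lower, beside 16.0% and 20.1% of all identifiers, while SGCE and GRB10 did not pass. CDKN1C entered the test only through its Lat-M2 level, so its Lat-M2 calls are not independent of the minimum. The medians that follow include it. The median log2 fold change of the 4 genes was −0.12 in Lat-M1 against PA, 0.14 in Lat-M2 against PA and −0.02 in Lat-M2 against Lat-M1, beside 0.16, 0.14 and −0.01 over all tested identifiers. After scaling, 3998 of 16700 identifiers rose and 3842 fell in Lat-M1 against PA, and 1243 rose and 1406 fell in Lat-M2 against PA.

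With all 4 Lat-M libraries set against PA, SGCE and GRB10 passed and SNRPN and CDKN1C did not. SGCE fell by 0.76 on the log2 scale (−0.76 ± 0.055, limma adjusted p = 0.00253) and GRB10 rose by 0.47 ± 0.076 (limma adjusted p = 0.0367), where 2.51% of all identifiers rose and 0.389% fell. The GRB10 call was lost after scaling (limma adjusted p = 0.0539), with no minimum (0.064), without the 4 structural RNAs (0.0623) and without any 1 library but the second of Lat-M2. The fit takes the 4 Lat-M libraries as independent; with the estimated correlation of libraries of a Lat-M number (limma duplicateCorrelation) GRB10 did not pass (limma adjusted p = 0.106). SNRPN was 0.43 ± 0.342 (limma adjusted p = 0.44) and CDKN1C −0.02 ± 0.434 (limma adjusted p = 0.978), each with Lat-M1 and Lat-M2 on opposite sides of PA. PEG10, described only, was −2.17 with all 4 below the PA libraries.

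The summed level of the 9 listed members was 243 and 253 TPM in Lat-M1, 275 and 246 TPM in Lat-M2, and 635, 604 and 637 TPM in PA. PEG10 made up 30.5% ± 0.595 of that sum in Lat-M1, 65.0% ± 1.62 in Lat-M2 and 81.8% ± 0.423 in PA (SD, n = 2, 2 and 3). The set was selected on the lower PEG10 of Lat-M cells, so nothing is read from the lower sum.

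A list of 54 other imprinted genes placed these changes among their kind; 38 were listed and 27 tested. In Lat-M1 against PA 11 rose and 5 fell (10 and 9 after scaling), or 40.7% and 18.5% of the tested list beside 33.2% and 11.6% of all identifiers, with a median of 0.26 beside 0.16. TFPI2 and NAP1L5, counted among those that rose, were tested only through their Lat-M1 level. Outside the NDN and SNRPN domain 7 of 23 rose and 5 fell (30.4% and 21.7%), with a median of 0.11. In Lat-M2 against PA 0 rose and 1 fell, PPP1R9A (limma; 5 higher and 2 lower at an unadjusted p under 0.05), beside 12.7% and 2.24% of all identifiers, and the median was 0.12 beside 0.14. Between Lat-M2 and Lat-M1, 6 were higher in Lat-M2 and 10 lower, or 22.2% and 37.0% beside 16.0% and 20.1%. With all Lat-M libraries together 0 of 27 passed (limma; 9 higher and 1 lower at an unadjusted p under 0.05). Apart from genes of the members' own domains, AIM1, which encodes a protein of the crystallin fold, changed at least 2-fold in Lat-M1: it had 1.22 and 1.55 TPM in Lat-M1, 11.7 and 9.71 TPM in Lat-M2, and 9.28, 9.85 and 9.66 TPM in PA (Lat-M1 against PA −2.15 ± 0.106, limma adjusted p = 8.04e-06).

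**Figure D4:**
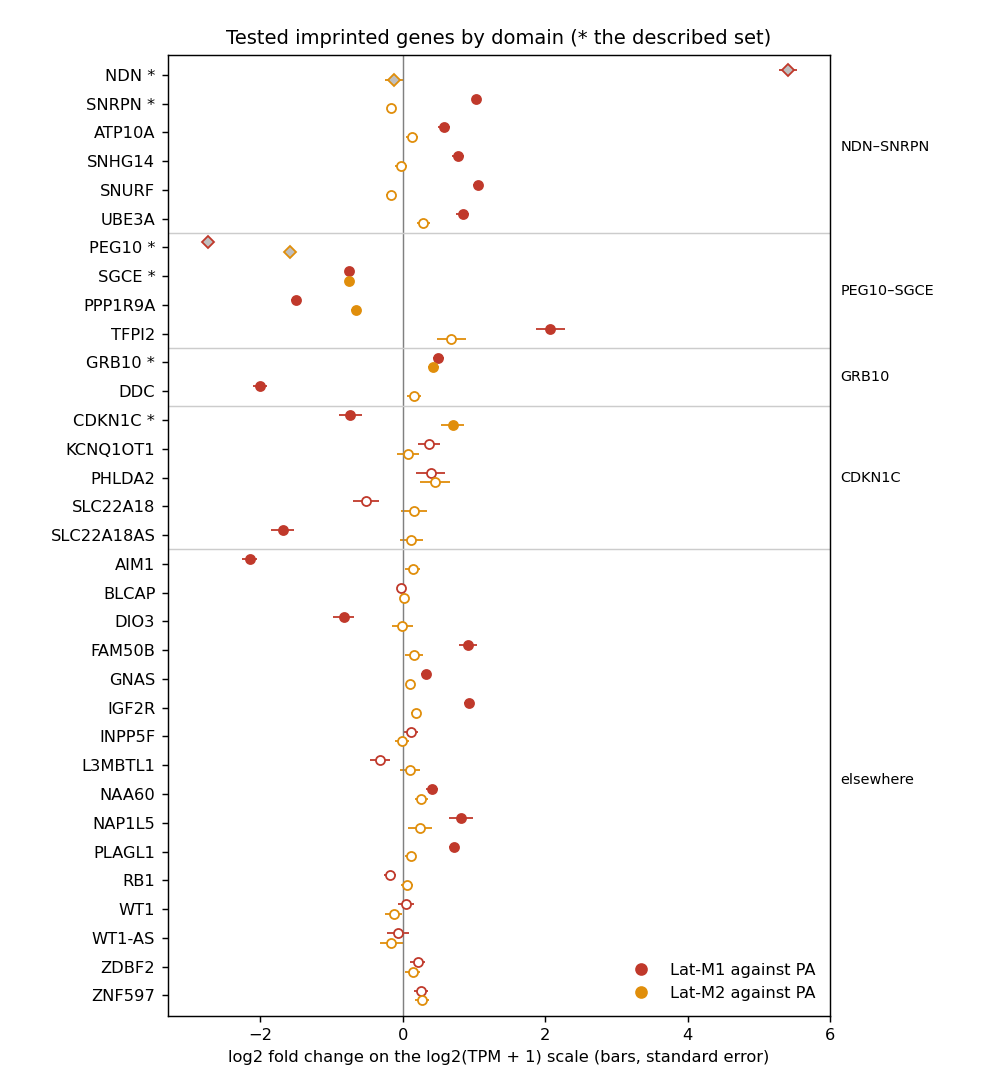
Log2 fold change against PA (horizontal axis, bars are standard errors) of tested imprinted genes grouped by domain, with Lat-M1 in red above Lat-M2 in orange; asterisks mark the described set, filled circles passed at an adjusted p under 0.05, open circles did not, and grey diamonds (NDN and PEG10) are shown with no test. Lat-M1 runs from −2.74 for PEG10 to 5.41 for NDN, and most Lat-M2 circles are open and close to 0.

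Genes that maintain imprints and the relatives of the members were counted in the same way. Of 19 genes of imprint maintenance, 17 were listed and 15 tested: TET2, a methylcytosine dioxygenase, and ARID4A rose in Lat-M1 (0.47 and 0.40, limma adjusted p = 0.00348 and 0.00508), CTCF, the insulator protein of the H19 and IGF2 control region, rose in Lat-M2 (0.36, limma adjusted p = 0.0286), and 0 fell in either (limma; 0 lower at an unadjusted p under 0.05; 2 lower in Lat-M1 after scaling). Those that rose were 13.3% of the tested list in Lat-M1 and 6.67% in Lat-M2, beside 33.2% and 12.7% of all identifiers. Of all identifiers 11.6% fell in Lat-M1 and 2.24% in Lat-M2. Levels of the maintenance methyltransferase DNMT1 were 51.0 and 52.8 TPM in Lat-M1, 58.9 and 52.2 TPM in Lat-M2, and 46.5, 48.7 and 49.7 TPM in PA, and it did not pass in either comparison (limma adjusted p = 0.263 and 0.0945).

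Among 40 family members and partners, 38 were listed and 28 tested; 10 rose and 4 fell in Lat-M1 (8 and 10 after scaling), and 3 rose and 2 fell in Lat-M2 (2 and 4 after scaling). These were 35.7% and 14.3% of the tested list in Lat-M1, beside 33.2% and 11.6% of all identifiers, and 10.7% and 7.14% in Lat-M2, beside 12.7% and 2.24%. The changes of at least 2-fold in Lat-M1 were GRB14, an adaptor of the GRB10 family, and FAM127C, a retrotransposon-derived relative of PEG10. GRB14 had 79.0 and 81.4 TPM in Lat-M1, 10.4 and 9.66 TPM in Lat-M2, and 12.6, 12.9 and 14.0 TPM in PA, and rose by 2.52 ± 0.069 in Lat-M1 (limma adjusted p = 5.31e-07). FAM127C fell in Lat-M1 (−1.20 ± 0.106, limma adjusted p = 0.000131) and was −0.29 in Lat-M2 (limma adjusted p = 0.105). CDKN1A, the p21 inhibitor related to CDKN1C, moved opposite to CDKN1C: it had 321 and 343 TPM in Lat-M1, 116 and 106 TPM in Lat-M2, and 188, 184 and 189.5 TPM in PA, and the difference of Lat-M2 from Lat-M1 was −1.57 ± 0.068 on the log2 scale (limma adjusted p = 6.38e-06). CDKN1B, another inhibitor of that family named after its values were seen, moved in the direction of CDKN1C. It was −0.27 in Lat-M1 against PA (limma adjusted p = 0.0222) and 0.44 in Lat-M2 against Lat-M1 (limma adjusted p = 0.00529). GRB7, a further adaptor of the GRB10 family, was higher in Lat-M2 than in Lat-M1 by 1.15 ± 0.120 (limma adjusted p = 0.000401). E2F1, a transcription factor bound by necdin, averaged 30.4, 26.1 and 26.0 TPM in Lat-M1, Lat-M2 and PA.

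Patterns most like those of NDN and PEG10 were found by the Euclidean distance between log2(TPM + 1) profiles over the 7 libraries, each centred on its mean, among 16723 other tested identifiers. Nearest to NDN were PHGDH, an enzyme of serine synthesis (distance 0.662; 30.9 TPM in Lat-M1, 0.00904 in Lat-M2 and 0.0901 in PA), LGALS3, which encodes galectin-3 (0.672), ACTA2, smooth muscle actin (1.03), and both identifiers of the integrin gene ITGB3 (1.08 and 1.09). SNRPN, its neighbour, was 509th by that measure, which depends on the size of a change as well as its shape. Its Pearson correlation with NDN over the 7 libraries was 0.990, beside 0.987 and 0.988 for the ITGB3 identifiers and 0.9998 for PHGDH. Nearest to PEG10 were RP11-731J8.2 (distance 0.326), the integrin gene ITGAD (0.358), PNMA2 (0.440; 7.45 TPM in Lat-M1, 22.7 in Lat-M2 and 53.5 in PA), the zinc transporter SLC39A8 (0.466; 25.4, 64.3 and 149 TPM) and PRR16 (0.510). SGCE, whose start adjoins that of PEG10, was 349th. Its correlation with PEG10 was 0.929, beside 0.987 for PRR16 and 0.999 for ITGAD.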

How the data were processed

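RNA was measured in 7 libraries of 769-P cells (Lat-M1, Lat-M2 and PA). Per the submitters' processing notes, TopHat2 2.2.4 and the genome hg19 were used; the quantifier, annotation, strand setting and filters are not given in the sources used here. Per the labels' protocols, total RNA came from an RNeasy column and went into TruSeq or NEBNext libraries, with no statement of the kit for each. The deposited files hold TPM per gene identifier, a unit read from the values, which sum to 1000000 in each library; TPM keeps no counts, so read depth cannot be given.

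The scale was log2(TPM + 1), and a fold change on that scale understates the change of low genes. The 16724 identifiers with a mean of at least 1 TPM were tested with limma 3.58.1 (R 4.3.3; trend and robust options, tested on simulated data), with Benjamini-Hochberg adjustment over all of them at 0.05. Lat-M1 and Lat-M2 were compared with PA and with each other in a fit of 3 groups, and all Lat-M with PA in a fit of 2 groups. Symbols under more than 1 identifier (161) were represented by the one with the highest mean. Errors beside TPM are SD between libraries. The members and lists were chosen with earlier results of these data known. Named genes were all members, genes of their domains, the 2 nearest protein-coding genes on each side, list genes past the threshold with at least a 2-fold change and a higher group mean of at least 1 TPM (up to 8 a list), and the 5 identifiers most like NDN and PEG10; TET2, ARID4A, CTCF, DNMT1, E2F1 and GABRG3 were named after their values were seen. Gene order came from GENCODE release 29, which matched 30947 of 33117 identifiers and is of another build, so no positions are taken from it. Alternatives were another added constant, no or a higher minimum, median-ratio scaling, leaving out structural RNAs or single libraries, summed identifiers, other fits and a block for the last number of the library name; such numbers did not pair the libraries (correlations of deviations −0.082 to 0.0312).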

Additional observations from a re-analysis of the deposited data

Results flagged for a closer look

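Several genes differed between Lat-M2 and Lat-M1 by a test of that difference (limma, the contrast of the fit of 3 groups). Among the members these were CDKN1C by 1.44 and SNRPN by −1.19 on the log2 scale (limma adjusted p = 0.000899 and 2.53e-05). PEG10, which chose the set, differed by 1.15 and is given with no test. Among the other imprinted genes named, AIM1 differed by 2.29, DDC by 2.16, SLC22A18AS by 1.80, TFPI2 by −1.39 and SNURF by −1.22. CDKN1C entered the test only through its Lat-M2 libraries and TFPI2 only through its Lat-M1 libraries, so their tests are not independent of the minimum. In the 4 Lat-M libraries, 1 library stood apart for MEST, at 0.0213 TPM in Lat-M2 against 0 in the others, and 1 for IGF2, at 0.0135 TPM in Lat-M1 against 0 in the others. With 3 values of 0 any value above 0 stands apart in this way, so the rate of about 1 in 20 expected by chance does not hold for these groups, and nothing is read from them.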

How the results depend on the processing

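Of 247 tested fold changes of members under an alternative, 213 kept their direction and side of the threshold, 23 lost a call, 3 gained one and 8 changed sign. These include PEG10 in Lat-M2 against Lat-M1, from which nothing is read. All 4 tested members outside the choice passed in Lat-M1 against PA under every alternative run in which they were tested, and with 1 library left out. In the main fit 33.2% of all identifiers rose there and 11.6% fell. The set was selected on contrasts with PA, so nothing is read from counts of members against PA. In Lat-M2 against PA the members past the test numbered 3, 4 without the 4 structural RNAs (SNRPN then at a limma adjusted p of 0.0127), 2 with 0.1 added or a minimum of 5 TPM, and 1 to 2 with 1 library left out (1 without the first Lat-M2 library); the other imprinted genes numbered 1, 2 with 0.1 added, no minimum, a minimum of 5 TPM, scaling or without the 4 structural RNAs, and 1 to 4 with 1 library left out (4 without the second Lat-M2 library). Over all 16724 identifiers in Lat-M2 against PA, 2119 rose and 375 fell with all libraries. Without the first Lat-M2 library these were 302 and 204, and without the second 2890 and 301. In Lat-M2 against Lat-M1 the members numbered 2, and 1 with a minimum of 5 TPM, which leaves out CDKN1C. In Lat-M against PA the members numbered 2, and 1 with no minimum, scaling, without structural RNAs, or with correlated libraries of a Lat-M number (duplicateCorrelation). They numbered 1 to 2 with 1 library left out. The other imprinted genes numbered 0, 1 with no minimum, and 17 as a contrast in the fit of 3 groups. With 1 library left out they numbered 0 to 4 (4 without the second Lat-M2 library). Over all 16724 identifiers that contrast called 5040 higher and 1066 lower, beside 420 and 65 in the main fit. Without the second Lat-M2 library 1740 of all identifiers were called higher and 129 lower. With the replicate number as a block the members numbered 0 in Lat-M against PA (SGCE −0.75 and GRB10 0.50, limma adjusted p = 0.238 and 0.371; 0 of all identifiers passed limma, 2060 had an unadjusted p under 0.05) and 2 in Lat-M2 against PA, where CDKN1C was 0.63 (limma adjusted p = 0.146), and the block ended no other call among them; the numbers did not pair the libraries. Differences near 0 changed sign: SGCE in Lat-M2 against Lat-M1 ran from −0.01 to 0.04 and GRB10 from −0.15 to 0.03 with 1 library left out (0.03 without structural RNAs), and CDKN1C in Lat-M against PA from −0.29 to 0.22 (0.02 and 0.00 without the first and second PA libraries, 0.21 and 0.22 without either Lat-M1 library). Where no cause is given, the cause was not tested. Group sizes of 2 and 3 and an unknown depth limit all values, and the low levels of MEST, H19, IGF2 and CDKN1C most.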

Other observations

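Another imprinted gene derived from a retrotransposon, RTL1, chosen here after its values were seen, was below the minimum for testing. It averaged 0.0570 TPM in Lat-M1, 0.108 TPM in Lat-M2 and 0.885 TPM in PA, the same order of groups as PEG10. Of the retrotransposon-derived relatives of PEG10 on the list of families, 5 were tested. Their log2 fold changes in Lat-M1 and Lat-M2 against PA were −1.20 and −0.29 for FAM127C, −0.37 and 0.03 for LDOC1, −0.22 and −0.18 for FAM127B, −0.09 and 0.05 for LDOC1L, and 0.15 and −0.04 for FAM127A; FAM127C in Lat-M1 passed (limma adjusted p = 0.000131). After scaling, FAM127A was −0.03 in Lat-M1, LDOC1 and LDOC1L were −0.11 and −0.10 in Lat-M2, and LDOC1, FAM127B and LDOC1L in Lat-M1 (−0.53, −0.39 and −0.26) and FAM127C in Lat-M2 (−0.42) passed as well. No test was made of the order of groups.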
